A study of Mus musculus with 6 samples.

Results

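The genes described here are those of the metallothioneins and of zinc handling in mouse liver, namely Mt1, Mt2, Mtf1, Slc30a1 and Slc39a14. They were found by gene symbol, which matched 5 of the 34745 genes in the count table, and all 5 were among the 13734 genes that passed the filter on low counts. C57BL/6J mice of wild-type (WT) genotype received a single i.p. overdose of acetaminophen (APAP, 300 mg/kg) or saline after a 12-hour fast, and liver mRNA was sequenced. The mice were male and aged 8 to 10 weeks by the methods, although sex-linked expression separated the APAP libraries from the saline libraries, as given below. The APAP livers were taken 12 hours after the injection. The APAP group had 2 libraries (APAP 1 and APAP 3) and the saline group had 3 (WT1, WT2 and WT3). The libraries named WT were read as saline because the others are named for APAP, their names do not pair them with single saline samples, and the second APAP liver was not analysed here. The labels do not say that each library came from a separate mouse, so p-values measure only the spread between these libraries, which may be technical.

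Metallothioneins are small cysteine-rich proteins that bind zinc, copper and cadmium and buffer free zinc in the cell, and in the liver Mt1 and Mt2 are the ubiquitous pair. Their transcription is switched on by MTF-1, a zinc-finger factor that senses free zinc and binds metal response elements (MREs) in promoters, and it is also known to respond to glucocorticoids, to IL-6 acting through STAT3 and to oxidative stress. Zinc leaves the cytosol through transporters of the ZnT (Slc30a) family, of which Slc30a1 encodes the plasma-membrane exporter ZnT1, itself a target of MTF-1. Zinc enters the cytosol through the ZIP (Slc39a) family, of which Slc39a14 encodes ZIP14, a hepatocyte importer of zinc, iron and manganese that is induced in inflammation.

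Mt1 (ENSMUSG00000031765) lies at chr8:94179089-94180325 on the plus strand of GRCm38, and Mt2 (ENSMUSG00000031762) lies at chr8:94172618-94173567 on the same strand. In GENCODE M21, where the starts and ends of both genes differ somewhat from those of the table, 5513 bases separate the end of Mt2 from the start of Mt1, and 0 annotated genes start between them. Stretches upstream of the RefSeq starts of Mt1, Mt2 and Slc30a1 are shown because MTF-1 is known to act on these genes through MREs. The stretches need not hold those elements, since a gene can have other starts, which were not searched. Each line gives the 250 bases upstream of the RefSeq start in GRCm38.p6, plus strand, 5′ to 3′, at chr8:94178839-94179088 for Mt1, chr8:94172368-94172617 for Mt2 and chr1:191906531-191906780 for Slc30a1. Capitals mark matches to the MRE letters TGCACNC or TGCGCNC on either strand, and a match on the minus strand is printed as it reads on the plus strand.
Mt1: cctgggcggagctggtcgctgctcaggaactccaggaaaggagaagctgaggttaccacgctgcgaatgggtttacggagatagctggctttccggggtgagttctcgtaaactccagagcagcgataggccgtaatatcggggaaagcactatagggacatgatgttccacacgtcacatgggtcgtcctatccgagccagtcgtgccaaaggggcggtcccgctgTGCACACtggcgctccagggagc
Mt2: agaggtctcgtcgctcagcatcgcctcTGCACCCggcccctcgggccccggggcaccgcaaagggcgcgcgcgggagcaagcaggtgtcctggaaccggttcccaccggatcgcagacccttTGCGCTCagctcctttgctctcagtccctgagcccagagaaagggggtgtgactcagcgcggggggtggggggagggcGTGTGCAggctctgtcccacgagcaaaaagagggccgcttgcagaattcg
Slc30a1: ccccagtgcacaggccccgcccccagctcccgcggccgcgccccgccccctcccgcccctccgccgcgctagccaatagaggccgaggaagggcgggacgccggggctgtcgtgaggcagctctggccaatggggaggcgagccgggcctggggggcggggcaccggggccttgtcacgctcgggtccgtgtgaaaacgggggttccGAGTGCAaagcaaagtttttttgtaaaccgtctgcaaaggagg

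In the window of 300 bases that runs from 250 bases upstream to 50 bases downstream of the start, Mt1 held 3 MRE matches, Mt2 held 4, Slc30a1 held 2 and Mtf1 held 0. The Mt1 matches began at positions -23, 3 and 21 from the start, so only the first is in the stretch printed above. Those of Mt2 began at -223, -128, -50 and 5, and those of Slc30a1 at -43 and 31. Of 32851 mouse promoter windows of the same length, 25.7% held at least 1 such match, 1.97% held at least 3 and 0.517% held at least 4. The letters TGACNNNGC, the core of the antioxidant response element bound by NRF2, matched once in Mt2 (TGACTCAGC, at -79) and once in Slc30a1 (minus strand, at -82), against 12.4% of all windows. The STAT letters TTCNNNGAA matched in 0 of the 4 member promoters and in 8.3% of all windows. Only the window around the RefSeq start used here was searched. Mt1 has 3 annotated transcripts, and matches near other starts of a gene were not counted, so these counts do not rank the promoters. These are matches of letters and say nothing of whether a factor was bound in these livers, and Slc39a14 had no entry in the promoter table.

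The metallothioneins were the members that varied most. As CPM, the count of a gene scaled to a common library size after TMM normalization, Mt1 was at 531.5 in APAP 1 and 1006 in APAP 3, and at 175.5, 165.3 and 813.4 in WT1, WT2 and WT3. Both APAP livers were above WT1 and WT2, but the saline liver WT3 stood between the APAP livers, so the groups overlapped. The group means were 768.9 ± 335.8 CPM (SD, n = 2) after APAP and 384.7 ± 371.3 CPM (SD, n = 3) after saline. In edgeR's quasi-likelihood test the log2 fold change, APAP minus saline, was 0.999 (SE 0.728), with an adjusted p of 0.449 over all tested genes. The 95% interval of that difference ran from -0.73 to 2.73 on the log2 scale, that is from 0.604-fold to 6.61-fold, which leaves a rise of several fold as well as a modest fall within it.

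Mt2 followed the same order of libraries at the upper end. It was at 434.7 CPM in APAP 1 and 1067 CPM in APAP 3, and at 100.3, 149.8 and 717.5 CPM in WT1, WT2 and WT3. WT3 was again above APAP 1 and below APAP 3, while WT1 and WT2 were the lowest of the 5 livers. The means were 751 ± 447.3 CPM after APAP (SD, n = 2) and 322.5 ± 343 CPM after saline (SD, n = 3), with an edgeR log2 fold change of 1.22 (SE 0.84, adjusted p = 0.423, 95% interval -0.76 to 3.20). Among genes ranked by mean CPM, Mt1 was 112th and Mt2 115th after APAP, and 316th and 384th after saline.

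**Figure D1:**
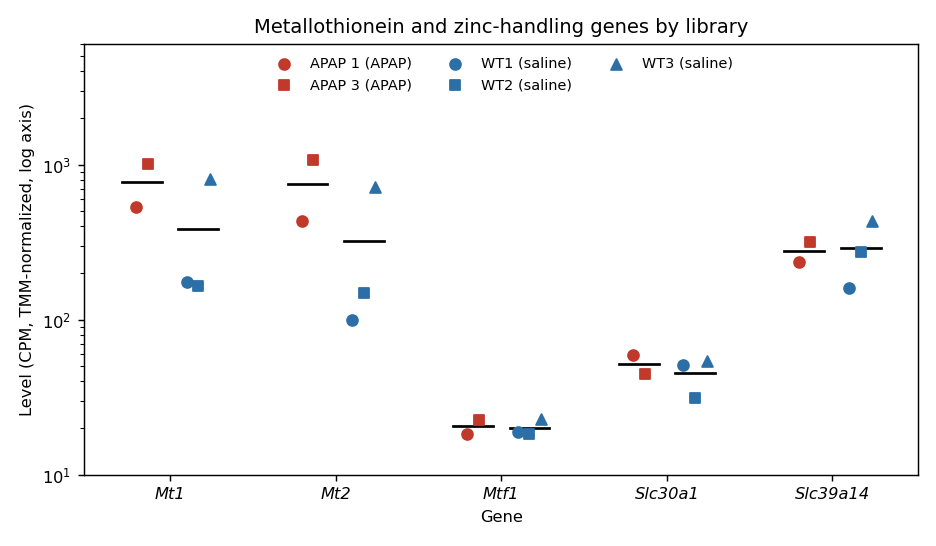
Each point is 1 liver library, with the level of the gene named under the horizontal axis on a logarithmic axis in CPM (TMM-normalized); red points are APAP, blue points are saline and black lines are group means. WT3, the blue triangle, lies between the APAP libraries for Mt1 (813.4 against 531.5 and 1006 CPM) and Mt2, and above them for Slc39a14 (434.2 CPM), and the groups overlap for all 5 genes.

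The spread within the saline group was wide for both metallothioneins. The highest saline liver was 4.92 times the lowest for Mt1 and 7.15 times for Mt2, against 1.89 and 2.45 times between the APAP livers. The biological coefficient of variation that edgeR estimated from within the groups was 56.2% for Mt1 and 63.3% for Mt2, larger than that of 93.3% and 95.7% of the tested genes. The counts behind these levels were not low, since the lowest count of Mt1 was 1958 and that of Mt2 was 1119. WT3 was 4.77 times the mean of WT1 and WT2 for Mt1 and 5.74 times for Mt2, a ratio that 28 and 19 of the 7893 tested genes averaging 10 CPM or more reached or exceeded, the gene itself included (0.355% and 0.241%). APAP 1 was 3.12 and 3.48 times, and APAP 3 was 5.91 and 8.54 times, the same mean of WT1 and WT2.

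Leaving out WT3 changed the outcome of both tests. Without WT3 the edgeR log2 fold change was 2.17 (SE 0.39, adjusted p = 0.0328) for Mt1 and 2.58 (SE 0.51, adjusted p = 0.0403) for Mt2, with both APAP livers above both remaining saline livers; in that fit 3.22% of all tested genes were called higher. Without APAP 3 it was 0.46 for Mt1 and 0.42 for Mt2, and without APAP 1 it was 1.39 and 1.73, with adjusted p between 0.475 and 0.866. WT3 was labelled no differently from WT1 and WT2, so it was kept, and the value with all 5 libraries is the one reported. Over 13 other settings of scaling, filter, test and left-out library, both log2 fold changes stayed above 0 and passed an adjusted p of 0.05 in 1, the fit without WT3.

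**Figure D2:**
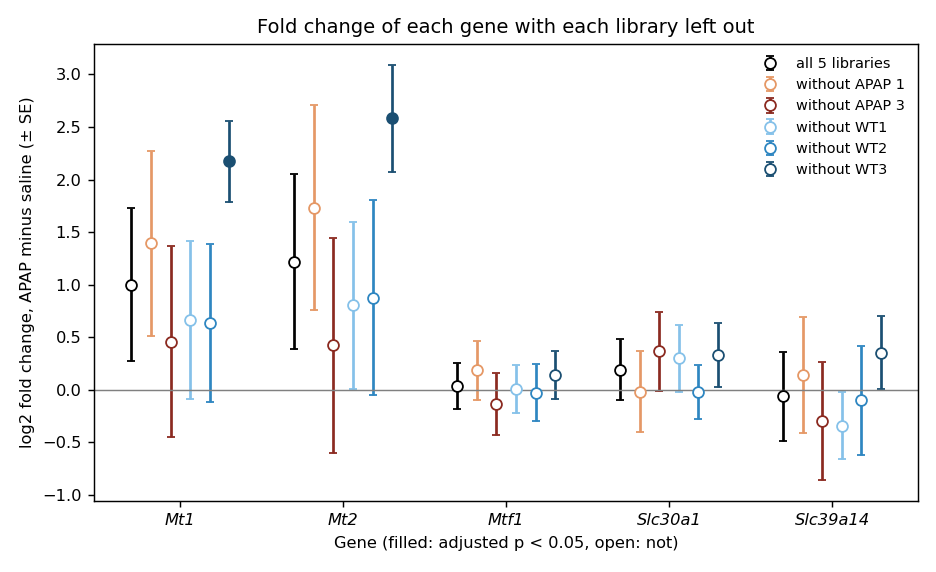
The vertical axis is the edgeR log2 fold change, APAP minus saline, with its SE, for the 5 genes on the horizontal axis; black is the fit of all 5 libraries, each other colour leaves out 1 library, and a filled point has an adjusted p under 0.05. The filled points are Mt1 (2.17) and Mt2 (2.58) without WT3, and the points of Mtf1, Slc30a1 and Slc39a14 lie on both sides of 0.

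Together Mt1 and Mt2 took 0.123% of all counts in APAP 1 (95% exact binomial interval 0.121 to 0.125%) and 0.226% in APAP 3 (0.224 to 0.228%). In saline they took 0.0216% in WT1 (0.0208 to 0.0224%), 0.0309% in WT2 (0.0300 to 0.0317%) and 0.143% in WT3 (0.142 to 0.145%). None of these intervals overlap, but they cover counting error only. The mean share was 0.174 ± 0.0729% (SD, n = 2) after APAP and 0.0653 ± 0.0678% (SD, n = 3) after saline, a difference of 0.109 percentage points with p = 0.3 in a two-sided exact permutation test. With 10 ways to assign the libraries, the smallest p this design allows is 0.1.

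The paired genes kept a similar balance in most livers. Per base of transcript, the ratio of Mt1 to Mt2 was 1.14 in APAP 1, 0.878 in APAP 3, 1.63 in WT1, 1.03 in WT2 and 1.06 in WT3, and the groups overlapped. The mean log2 ratio differed by -0.274 between APAP and saline (two-sided exact permutation p = 0.6). A ratio within a library does not depend on the scaling between libraries. The other metallothionein genes were scarce and were not tested. Mt3, known chiefly from brain, had 14 and 9 counts in the APAP livers and 1, 2 and 0 in the saline livers, and Mt4, known from stratified epithelium, had 7 counts in APAP 1 and 0 in the other libraries.

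Mtf1 (ENSMUSG00000028890, chr4:124802104-124849800, plus strand), which encodes the zinc sensor that drives the metallothioneins, was nearly level between groups in CPM. It was at 18.33 CPM in APAP 1 and 22.68 CPM in APAP 3, and at 18.91, 18.27 and 22.85 CPM in WT1, WT2 and WT3. The livers ran from 18.27 to 22.85 CPM with the groups intermixed, and the edgeR log2 fold change was 0.035 (SE 0.216, adjusted p = 0.941). Its 95% interval was -0.48 to 0.55, that is 0.719-fold to 1.46-fold. MTF-1 is known to be controlled by zinc binding and entry into the nucleus, which mRNA counts do not measure. Its coefficient of variation, 21.8%, exceeded that of only 10.4% of the tested genes.

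Slc30a1 (ENSMUSG00000037434, chr1:191906767-191913247, plus strand), the zinc exporter ZnT1, was at 59.05 CPM in APAP 1 and 44.75 CPM in APAP 3, and at 51.27, 31.42 and 53.78 CPM in WT1, WT2 and WT3. APAP 1 was the highest liver and WT2 the lowest, and APAP 3 lay below WT1 and WT3. The means were 51.9 ± 10.11 CPM (SD, n = 2) and 45.49 ± 12.25 CPM (SD, n = 3), with an edgeR log2 fold change of 0.19 (SE 0.29, adjusted p = 0.73, 95% interval -0.49 to 0.87). In WT3, Slc30a1 was 1.3 times the mean of WT1 and WT2.

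Slc39a14 (ENSMUSG00000022094, chr14:70303469-70351425, minus strand), the importer ZIP14, was at 237.3 CPM in APAP 1 and 317.8 CPM in APAP 3, and at 160.2, 274.8 and 434.2 CPM in WT1, WT2 and WT3. The saline livers spanned a 2.71-fold range that contained both APAP livers. The edgeR log2 fold change was -0.06 (SE 0.42, adjusted p = 0.946, 95% interval -1.06 to 0.94), and it was 0.35 (adjusted p = 0.591) without WT3. WT3 was 2 times the mean of WT1 and WT2, a ratio reached by 3.4% of the genes with at least 10 CPM, so Slc39a14 was high in the same saline liver as the metallothioneins, to a smaller degree.

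None of the 5 members was called higher or lower at an adjusted p under 0.05, against 3.7% of all tested genes called higher and 3.53% called lower. By a looser rule, a fold of at least 1.5 with an unadjusted P under 0.05, 0 of 5 were called, against 12.3% of tested genes called higher and 11.2% called lower, and the unadjusted p of the members lay between 0.189 and 0.887. The groups overlapped for all 5, while both APAP libraries were above all saline libraries in 24% of the tested genes and below them in 20.1%. DESeq2 and edgeR's likelihood ratio and exact tests called 0 of the 5 as well. The median log2 fold change of all tested genes was 0.03.

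Compared per kilobase of principal transcript, which allows levels of different genes to be set side by side, the members fell into an order that held in every liver apart from that of Mt1 and Mt2. Mt1 ran from 301.1 to 1833 and Mt2 from 196.3 to 2089 CPM per kilobase, and these ranges overlapped. Slc39a14 followed at 32.51 to 88.15, then Slc30a1 at 5.992 to 11.26 and Mtf1 at 2.394 to 2.994 CPM per kilobase. The ranges of Slc39a14, Slc30a1 and Mtf1 did not overlap with each other or with those of the metallothioneins. Little sequence was shared with other genes, since 0% of the 50-base words in the longest transcripts of Mt1, Mt2, Mtf1 and Slc30a1 and 0.41% of those of Slc39a14 occurred in a transcript of another gene. Mt2 has an annotated antisense gene (Gm45774), and the counting is not stated to use strand. At Mtf1, the overlapping gene 1110065P20Rik on the other strand had between 65 and 125 counts, and at Slc30a1 the antisense gene 1700034H15Rik had at most 9.

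The profile of each member over the 5 libraries was compared with that of all tested genes of at least 10 CPM by the root mean square difference of mean-centred log2 CPM, as a description over 5 libraries. The genes closest to Mt1 were Inhbb (0.266), Agpat9 (0.279) and Mt2 (0.296). Inhbb, the inhibin βB subunit, was at 8.814 and 22.25 CPM after APAP and at 4.661, 3.255 and 13.43 CPM in WT1, WT2 and WT3. The genes closest to Mt2 were Mt1 (0.296), Srrm4 (0.468) and Nfkbiz (0.479), the last encoding the NF-κB cofactor IκBζ, at 34.84 and 59.65 CPM after APAP and 6.722, 15.21 and 27.46 CPM after saline. Each metallothionein was thus among the 3 nearest profiles of the other. The near genes were picked for this likeness, so their values in WT3 add no evidence to it.

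The other members varied less and had closer neighbours. For Mtf1 they were Pcna-ps2 (0.023), Vps4a (0.035) and Acadvl (0.039), for Slc30a1 they were Hnrnpc (0.080), Agpat3 (0.092) and Mttp (0.098), and for Slc39a14 they were Med13l (0.100), Usp31 (0.105) and Cd163 (0.125). Small differences were easy to find for genes that vary little, so these values do not rank how close the pairs are across members. Cd163, a macrophage scavenger receptor, was at 17.16 and 25.03 CPM after APAP and at 13.62, 24.98 and 31.93 CPM in WT1, WT2 and WT3.

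Of the 10 zinc exporters of the ZnT family listed, Slc30a1 included, 8 were tested and 0 were called. Their median log2 fold change was 0.25, beside 0.03 for all tested genes, and 2 of 8 had both APAP libraries above all saline libraries, a share near the 24% of all tested genes. These were Slc30a6 and Slc30a7, which load zinc into the secretory pathway, with edgeR log2 fold changes of 0.41 (SE 0.22, adjusted p = 0.317) and 0.36 (SE 0.20, adjusted p = 0.311). Slc30a10, a manganese exporter and the family member with the highest mean CPM here, was at 74.03 and 37.58 CPM after APAP and at 82.55, 85.43 and 67.41 CPM after saline, with a log2 fold change of -0.49 (SE 0.32, adjusted p = 0.395). The smallest unadjusted p in the family was 0.108.

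Of the 14 zinc importers of the ZIP family listed, 13 were tested and 0 were called by the quasi-likelihood test, with a median log2 fold change of 0.09. By the looser rule 2 were higher and 1 was lower, shares near those of all tested genes (12.3% and 11.2%), and 4 had an unadjusted p under 0.05. Slc39a6 (ZIP6) was at 11.16 and 14.4 CPM after APAP and at 4.033, 4.916 and 7.683 CPM after saline, a log2 fold change of 1.20 (SE 0.34, adjusted p = 0.0834). Slc39a10 (ZIP10), its close relative, was at 8.226 and 9.704 CPM after APAP and at 3.406, 4.584 and 5.345 CPM after saline, a log2 fold change of 1.01 (SE 0.31, adjusted p = 0.0985). Neither gene overlapped between groups, and these genes were picked out after their values were seen.

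Slc39a8 (ZIP8), the importer most closely related to ZIP14, stood on the other side. It was at 24.85 and 25.78 CPM after APAP and at 54.23, 40.72 and 41.82 CPM after saline, with no overlap, and its log2 fold change was -0.85 (SE 0.22, adjusted p = 0.0648). Slc39a6 and Slc39a8 passed an adjusted p of 0.05 in DESeq2 (0.0297 and 0.0109) and in edgeR's likelihood ratio test (0.0322 and 0.0396). DESeq2 called 2093 and the likelihood ratio test 1835 of the 13734 tested genes, and Slc39a8 was also picked out after its values were seen. Slc39a6 passed in the quasi-likelihood fit without WT3 (log2 fold change 1.51, adjusted p = 0.0435), in which 3.22% of tested genes were called higher. ZIP14 itself had the highest mean CPM of the family. In the family as a whole 4 genes had both APAP libraries above all saline libraries, namely Slc39a1, Slc39a6, Slc39a10 and Slc39a13, and 2 had them below, namely Slc39a5 and Slc39a8, beside 24% and 20.1% of all tested genes.

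**Figure D3:**
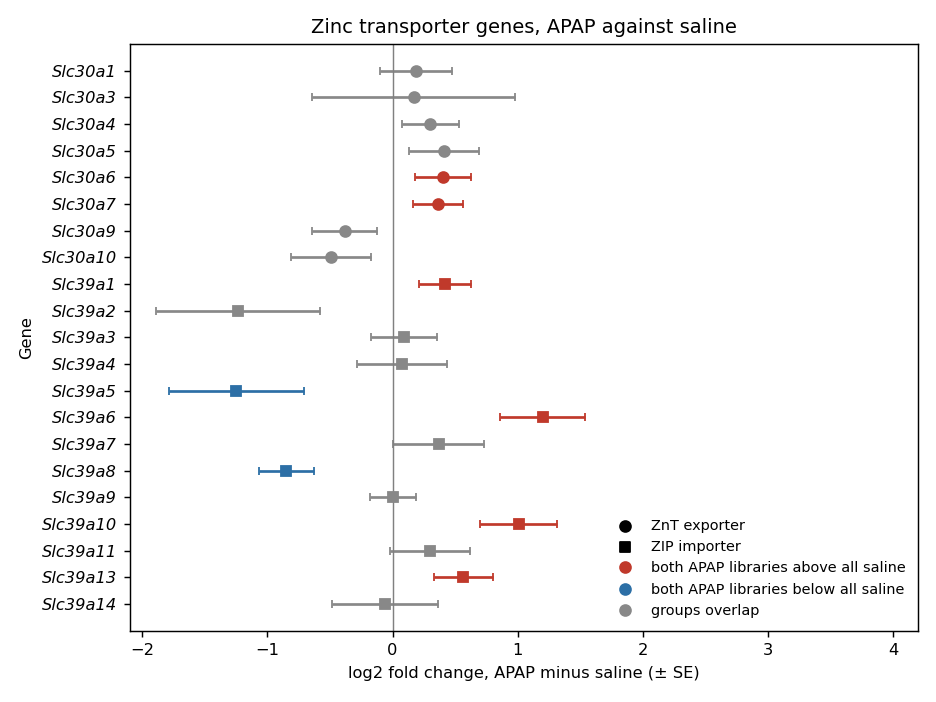
The horizontal axis is the edgeR log2 fold change, APAP minus saline, with its SE, and the vertical axis lists the tested genes of the ZnT (circles) and ZIP (squares) families; red and blue mark genes whose APAP libraries lie all above or all below saline, grey marks overlap. Slc39a6 (1.20) and Slc39a10 (1.01) lie to the right and Slc39a8 (-0.85) to the left of 0, while Slc30a1 and Slc39a14 are grey and near 0.

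The 8 genes listed as reported targets of MTF-1, which include Mt1, Mt2 and Slc30a1, were all tested. Of these, 0 were called higher and 1 was called lower, beside 3.7% and 3.53% of all tested genes. The gene called lower was Sepw1, listed as Selenow, a small selenoprotein, at 29.55 and 40.8 CPM after APAP and at 94.02, 78.32 and 83.51 CPM after saline (log2 fold change -1.28, SE 0.24, adjusted p = 0.0275). By the looser rule 4 of 8 were higher, namely Slc39a10, Ndrg1, Csrp1 and Gclc, beside 12.3% of all tested genes. The list does not give the direction in which MTF-1 acts on a gene, and Gclc is also among the NRF2 targets listed below. Gclc, the catalytic subunit of the enzyme that limits glutathione synthesis, had the highest mean CPM of these 4, with 694.4 and 942.6 CPM after APAP and 438, 565.4 and 316.5 CPM after saline (log2 fold change 0.90, SE 0.32, adjusted p = 0.148). WT3 was the highest saline library for 4 of these 8 genes, Mt1 and Mt2 included, beside 36.1% of all tested genes. It was the lowest saline library for Gclc, Ndrg1 and Csrp1. The median of the list was 0.95.

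Copper, the other essential metal that metallothioneins bind, was read through 12 genes of copper handling, all tested. None was called higher and 1 was called lower, beside 3.7% and 3.53% of all tested genes. The gene called lower was Ccs, the chaperone that loads copper into SOD1. Ccs was at 44.42 and 50.75 CPM after APAP and at 152.6, 103 and 96.4 CPM after saline, with no overlap and a log2 fold change of -1.30 (SE 0.28, adjusted p = 0.0404). The calls of Ccs and Sepw1 held without WT3 and were lost when APAP 1, APAP 3, WT1 or WT2 was left out. Cp, ceruloplasmin, with the highest mean CPM of these genes, had 1745 and 1557 CPM after APAP and 1443, 1048 and 1480 CPM after saline (log2 fold change 0.32, SE 0.29, adjusted p = 0.554). The median of the list was -0.28, and 5 of 12 had both APAP libraries below all saline libraries, beside 20.1% of all tested genes.

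The other signals known to induce metallothioneins were read through fixed lists, which were chosen with earlier results of these data known. The 10 listed NRF2 targets had a median log2 fold change of 1.20. Beside 3.7% and 3.53% of all tested genes, 4 of these targets were called higher and 0 lower. They were Srxn1 (sulfiredoxin; log2 fold change 4.08, SE 0.29, adjusted p = 0.00181), Slc7a11 (the cystine importer, which had 715 and 285 counts after APAP and 1, 0 and 0 after saline), Gsr (glutathione reductase; 1.30, adjusted p = 0.0167) and Hmox1 (heme oxygenase 1; 1.89, adjusted p = 0.0358). With APAP 1, APAP 3 or WT2 left out, 2 of the 10 were called. In WT3 the level of Srxn1 was 45.3 CPM, between those of WT1 (44.28) and WT2 (47.1). WT3 was the highest saline library for 3 of these 10 genes and for 36.1% of all tested genes.

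The 12 listed genes responsive to IL-6 and STAT3 had a median log2 fold change of 1.80, beside 0.03 for all tested genes. Of these 12, 7 were called higher and 0 lower, beside 3.7% and 3.53% of all tested genes. The count fell to 0 without WT2, 1 without WT1 and 3 without either APAP library. The genes called with all libraries were Socs3, Saa1, Saa2, Lcn2, Bcl3, Junb and Il1rn. Lcn2, lipocalin 2, was at 2045 and 660.9 CPM after APAP and at 11.83, 9.499 and 62.13 CPM in WT1, WT2 and WT3 (log2 fold change 5.601, SE 0.973, adjusted p = 0.0231), and Socs3, the feedback inhibitor of STAT3 signalling, was at 38.02 and 33.69 CPM against 7.35, 4.783 and 14.1 CPM (2.03, SE 0.42, adjusted p = 0.0374). WT3 was the highest saline library for 10 of these 12 genes, beside 36.1% of all tested genes. Lcn2 and Socs3 in WT3 were below both APAP livers, whereas Hp (haptoglobin; 6225 CPM in WT3 against 4812 and 5529 after APAP) and Stat3 (174 against 101.4 and 153.4 CPM), named after their values were seen, were in WT3 above both. Fgb, fibrinogen β, the most abundant of the list by mean CPM, had a log2 fold change of 0.77 (SE 0.37, adjusted p = 0.252).

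The 8 listed glucocorticoid-responsive genes had a median of -0.22, and 0 were called by the quasi-likelihood test. By the looser rule 2, Tat and Tsc22d3, were lower, beside 11.2% of all tested genes. DESeq2 and edgeR's likelihood ratio and exact tests each called both lower. Those tests called 1155, 869 and 827 of the 13734 tested genes lower. WT3 was the highest saline library for 6 of 8, beside 36.1% of all tested genes, and WT2 was the highest for Tsc22d3 and Sgk1. Tsc22d3, the glucocorticoid-induced leucine zipper, was at 74.15 and 87.22 CPM after APAP and at 130.6, 289.4 and 190.7 CPM in WT1, WT2 and WT3 (log2 fold change -1.33, SE 0.37, adjusted p = 0.0776). Fkbp5, a chaperone of the glucocorticoid receptor complex picked out after its values were seen, was at 138.8 and 276.7 CPM after APAP and at 56.74, 98.38 and 275.1 CPM in WT1, WT2 and WT3, the same order of APAP 3, WT3 and APAP 1 as the metallothioneins (log2 fold change 0.53, SE 0.65, adjusted p = 0.661). Tat, tyrosine aminotransferase, the most abundant of the list, went another way, with 1157 and 1000 CPM after APAP and 1815, 2510 and 4043 CPM after saline (log2 fold change -1.37, SE 0.42, adjusted p = 0.101). Dusp1, also picked out after its values were seen, was at 88.14 and 72.69 CPM after APAP and at 57.36, 46.97 and 153.4 CPM after saline, so that WT3 was above both APAP livers. The part of glucocorticoid or IL-6 signals in the level of Mt1 and Mt2 in WT3 was not tested.

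**Figure D4:**
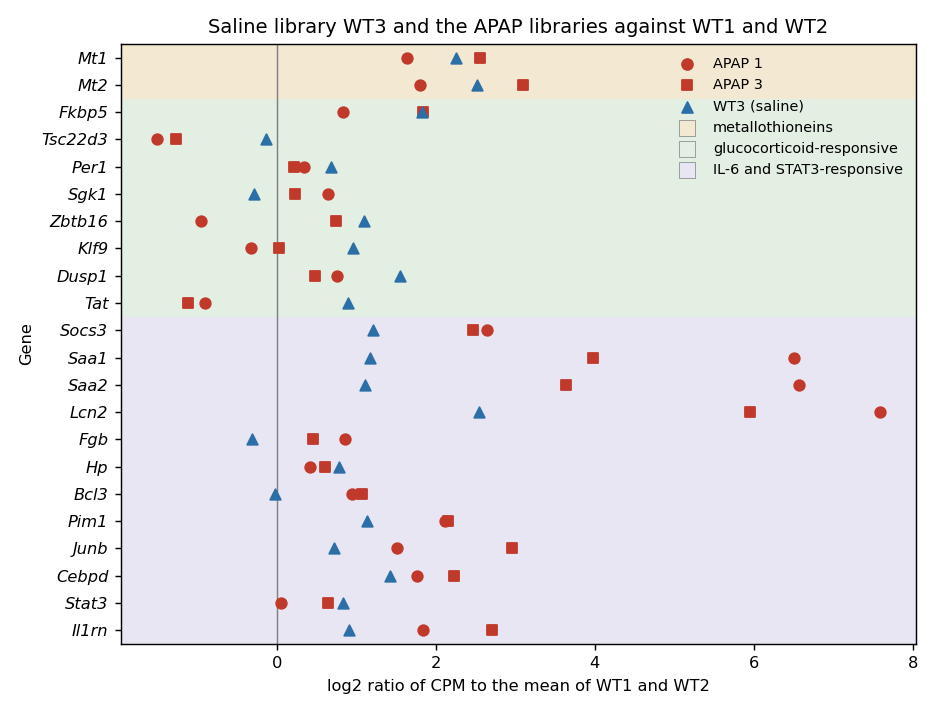
The horizontal axis is the log2 ratio of the CPM in APAP 1, APAP 3 (red) and the saline library WT3 (blue triangle) to the mean of WT1 and WT2, for the tested metallothioneins and the glucocorticoid-responsive and IL-6 and STAT3-responsive genes listed on the vertical axis. The blue triangle lies between the red points for Mt1 and Mt2, close to APAP 3 for Fkbp5, left of both red points for Lcn2 and Socs3, and right of both for Hp and Stat3.

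Facts of the libraries bear on these values. Total counts ran from 13378445 to 15976339, TMM factors were 1.27 and 1.09 for APAP and 0.783 to 0.98 for saline, and 3 counts correspond to 0.176 to 0.269 CPM. The livers showed hepatocyte genes at high level, with 6 listed markers summing to 67590 and 117200 CPM after APAP and to 117300 to 168600 CPM after saline. Alb made up most of each sum, with 51540 and 89800 CPM after APAP. Of the 6 markers, 2 were higher and 4 lower by edgeR log2 fold change, and 0 were called. The tested neutrophil markers were called higher in 8 of 8 cases, beside 3.7% of all tested genes. The list of 9 summed to 77.51 to 120.9 CPM after APAP against 4.571 to 8.351 CPM after saline. Camp and Ly6g were at 0 counts in all saline libraries. Monocyte markers were called higher in 2 of 5 cases, with sums of 44.42 to 49.76 against 9.687 to 12.46 CPM, and cholangiocyte markers in 1 of 4, with sums of 42.22 to 70.63 against 6.991 to 10.02 CPM. Of the listed markers of Kupffer, sinusoidal endothelial, stellate and lymphoid cells, 0 were called, and their sums overlapped between groups. In bulk liver, fewer cells of a type and less RNA per cell cannot be told apart. The neutrophil sum was 8.351 CPM in WT3, and the part of infiltrating cells in the levels of the 5 genes was not tested. Xist ranged from 0.7638 to 1.731 CPM after APAP and from 289.6 to 914.3 CPM after saline, and the Y-linked Ddx3y was at 61.69 to 78.97 CPM and at most 0.0668 CPM, respectively. Sex-linked expression therefore separated the groups although the methods name male mice. Any effect of sex on the 5 genes, or on any other gene compared here, cannot be told apart from that of APAP.

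Scaling to a hepatocyte transcript gave another view of the same counts, and was tried after the data were seen. Per 1000 counts of Alb, Mt1 was at 10.3 and 11.2 after APAP and at 1.36, 1.74 and 6.76 in WT1, WT2 and WT3, and Mt2 was at 8.43 and 11.9 against 0.777, 1.58 and 5.96. On this scale both APAP livers were above WT3. Alb itself was at 51540 and 89800 CPM after APAP and at 129100, 95100 and 120400 CPM after saline (edgeR log2 fold change -0.70, SE 0.59, adjusted p = 0.512), so the scale moves with the groups. Per 1000 Alb counts Mtf1 was at 0.356 and 0.253 against 0.146, 0.192 and 0.190, which shows that a member level in CPM also shifts on it. By edgeR log2 fold change, 2 of the 6 listed hepatocyte markers were higher after APAP and 4, Alb included, were lower. Among the higher was Fabp1, at 1227 and 3620 CPM after APAP and at 1241, 835.3 and 607.5 CPM in WT1, WT2 and WT3. No other marker was tried as a scale, and the place of WT3 may differ on another.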

How the data were processed

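Liver mRNA was sequenced in 6 samples per the labels, of which 5 libraries were analysed (2 APAP, 3 saline). The authors sequenced on Illumina NovaSeq and obtained raw read counts per gene with HISAT2. The deposited count columns were used as they are, and the 5 deposited FPKM columns were not used. The labels' processing notes name the builds GRCm38 and mm10. The annotation, strand setting and program versions are not given in the sources used here. Of the 34745 gene IDs, 34267 were found in GENCODE M21 (GRCm38), and coordinates are those of the deposited table.

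The analysis used edgeR 4.0.16 under R 4.3.3: filterByExpr (minimum count 10, minimum total 15), TMM, and the quasi-likelihood test with Benjamini-Hochberg adjustment over 13734 genes. The study names edgeR without its test, filter or normalization, so these were chosen here, and the study's P threshold with a 1.5-fold limit was counted as well. That rule called 3228 genes here, more than the study reported, so the shares given for it are not the study's own. Intervals of fold changes were computed from the SE and the degrees of freedom of this fit. Alternatives were the likelihood ratio and exact tests, DESeq2 1.42.0, other scalings and filters, and each library left out. The scripts were tested on simulated data. There, 57 of 97 genes with a set log2 fold change of 2 in either direction were called, and 2 of 93 with a set change of 1. Levels per kilobase used the longest APPRIS principal transcript. Promoters are from RefSeq (GRCm38.p6) and were found for 4 of the 5 members.

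The members and gene lists were chosen with earlier results of these data known. From each list the genes with an adjusted p under 0.05 (at most 8) and the gene with the highest mean CPM are named, with the 3 nearest profiles of each member. Other listed genes were named after their values were seen. Selenow was matched as Sepw1 by gene ID and Tf as Trf by synonym. Within-group pairs of libraries differed by more than sampling noise. Total counts were 13378445 to 15976339, and intervals and floors cover counting error only, because the reads carry no molecular identifiers.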

Additional observations from a re-analysis of the deposited data

How the results depend on the processing

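No paired analysis was possible because the saline columns carry no replicate number of the labels. Mt1 and Mt2 kept their direction under all other scalings, filters and tests and with each library left out. With 1 library left out in turn, the log2 fold change was 0.456 to 2.173 for Mt1, 0.421 to 2.584 for Mt2, -0.137 to 0.184 for Mtf1, -0.020 to 0.366 for Slc30a1 and -0.342 to 0.351 for Slc39a14. The highest values of Mt1, Mt2 and Slc39a14 were without WT3 (-0.342 for Slc39a14 without WT1). Mtf1 was at -0.001 with DESeq2 size factors and with DESeq2, and Slc39a14 at 0.280 by library size only. Scaled to albumin counts, chosen after seeing the data and with no test, the mean log2 differences were 2.094 for Mt1, 2.368 for Mt2, 0.778 for Mtf1, 0.960 for Slc30a1 and 0.782 for Slc39a14. No other hepatocyte marker was used as a scale. All genes called numbered 993, against 1835 by the likelihood ratio test, 1776 by the exact test, 2093 by DESeq2, 3228 by a fold of at least 1.5 with unadjusted P under 0.05 and 165 to 922 with 1 library left out. By library size only they were 1339, 1042 higher and 297 lower (508 and 485 in the main fit), with the median of all genes at 0.419, so directions on that scale are relative to this shift. Called metallothioneins were 0, and 0 to 2 with 1 library left out. Called ZIP genes were 0, against 1 by library size only, 2 by the likelihood ratio test, the exact test and DESeq2, and 0 to 1 with 1 library left out. Called MTF-1 targets were 1, against 2 by upper-quartile factors or with at least 10 counts in every library, 4 by library size only, 3 by the other tests, and 0 to 3 with 1 library left out. Called copper genes were 1, against 0 by library size only and 0 to 1 with 1 library left out. Called glucocorticoid-responsive genes were 0, against 1 with no filter and 2 by the other tests. Called NRF2 targets were 4, against 8 by library size only, 7 with no filter and by the other tests, and 2 to 4 with 1 library left out, and called IL-6 and STAT3-responsive genes were 7, against 0 to 7 with 1 library left out and 8 by library size only, with no filter and by the other tests. The cause of these shifts was not tested. With 2 and 3 libraries per group the intervals of all 5 members span 0.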
